A study of Mus musculus with 6 samples.

Results

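The 10 genes described here encode amino acid transporters of the plasma membrane: Slc7a5, Slc3a2, Slc7a11, Slc7a1, Slc7a3, Slc1a4, Slc1a5, Slc38a1, Slc38a2 and Slc6a9. They are read by 20 of the 45037 probe sets that remain after 64 array controls are set aside, every probe set whose platform annotation names a member. Each of the 20 names a single gene, and 3 genes have 1 probe set, 4 have 2 and 3 have 3. The samples were cultures of MC3T3-E1, a clonal pre-osteoblast (OB) line from mouse calvaria, of which subclone 4 was used. Control cultures (n = 3) were left untreated and ascorbic acid (AA) cultures (n = 3) received 50 µg of AA, per ml in the study's methods, until RNA was taken at day 5. Both groups were grown in 6-well plates in α-MEM made without AA, with heat-inactivated fetal bovine serum, and the medium was renewed every 2 days. Each RNA was read on its own Affymetrix Mouse Genome 430 2.0 array. The genes were selected on the difference between AA and control signals in these same arrays, so that difference is given for them as a description, with its standard error (SE) and no p-value.

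Cells take up amino acids through families of solute carriers that differ in the ions they couple to and in the amino acids they exchange. Light chains such as Slc7a5 and Slc7a11 reach the cell surface only when bound to the heavy chain Slc3a2, and several of the genes in this group are classic targets of ATF4, the transcription factor of the amino acid response. OBs need much glycine and proline for collagen, and ATF4 is known as a regulator of amino acid import in the OB lineage.

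Signals below are the deposited linear values, in arbitrary units, in the order of replicates 1, 2 and 3. Differences are AA minus control on the log2 scale after quantile normalization between arrays, so -1 stands for a halved signal. They come from a limma fit over all probe sets with the replicate number as a block. Signals of different probe sets are not comparable with each other, since probes differ in brightness, but the median of all probe sets, 3.93 on the log2 scale, marks where a signal becomes hard to read. In bulk RNA, fewer cells that express a gene and less of its RNA per cell cannot be told apart.

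Slc7a5, the light chain of the LAT1 exchanger that brings in leucine and other large neutral amino acids, had the lowest difference of the 20 probe sets. Its signals were 2027, 1884 and 2125 in control cultures and 849, 956 and 952 in AA cultures. All 3 AA values lay far below the lowest control value. The mean went from 2012 ± 121 (SD, n = 3) to 919 ± 60.8 (SD, n = 3), a log2 difference of -1.15 (SE 0.08), which is 45.2% of the control level. By replicate number the differences were -1.27, -1.02 and -1.15.

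Slc3a2, the CD98 heavy chain that carries Slc7a5 to the membrane, was also lower in every AA culture. Its signals were 1604, 1437 and 1497 in control cultures and 925, 1022 and 971 in AA cultures, with no overlap. The log2 difference was -0.65 (SE 0.08), or 63.9% of control, and by replicate number it was -0.81, -0.52 and -0.61. The partner chains of LAT1 were thus both lower, Slc7a5 by more in each of the 3 replicate numbers. Over the 18 alternative settings that gave a difference, such as other scalings or a left-out replicate, the log2 difference ran from -1.21 to -1.09 for Slc7a5 and from -0.71 to -0.57 for Slc3a2. Settings that changed only the test, the block or the filter on all 6 arrays left the difference as it was by construction.

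Slc7a11, the xCT light chain that exchanges cystine for glutamate, was near the limit of reading. Its brighter probe set had signals of 14.1, 16.4 and 23.1 in control cultures and 10.9, 13.5 and 12.4 in AA cultures. These do not overlap, but they lie near the median of all probe sets, and the log2 difference of -0.57 had an SE of 0.35. The dimmer probe set overlapped between groups, with a difference of 0.01 (SE 0.49). With 50 added to every signal the brighter one had a difference of -0.14.

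The promoter windows of 3 members are shown because they differ in the letters TTGCATCA, a form of the element bound by ATF4 with C/EBP proteins, and because genes of the ATF4 pathway are described further on. Each is the RefSeq sequence of GRCm38.p6 from 250 bases before to 50 bases after an annotated start, with TTGCATCA on either strand in capitals. The Slc7a11 window is chr3:50443564-50443863, that of Slc1a4 chr11:20332664-20332963 and that of Slc3a2 chr19:8713848-8714147, all on the minus strand.
Slc7a11: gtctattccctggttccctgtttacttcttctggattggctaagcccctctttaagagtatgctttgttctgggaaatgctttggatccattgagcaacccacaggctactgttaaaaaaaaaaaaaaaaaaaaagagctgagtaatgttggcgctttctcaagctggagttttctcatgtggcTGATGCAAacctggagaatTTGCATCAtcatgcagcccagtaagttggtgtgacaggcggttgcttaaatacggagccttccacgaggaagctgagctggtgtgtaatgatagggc
Slc1a4: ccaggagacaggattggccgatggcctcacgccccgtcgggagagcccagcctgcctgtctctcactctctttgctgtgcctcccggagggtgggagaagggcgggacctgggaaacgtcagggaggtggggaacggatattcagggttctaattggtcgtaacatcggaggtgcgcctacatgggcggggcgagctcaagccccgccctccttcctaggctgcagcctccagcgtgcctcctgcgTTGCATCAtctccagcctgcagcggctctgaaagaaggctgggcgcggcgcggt
Slc3a2: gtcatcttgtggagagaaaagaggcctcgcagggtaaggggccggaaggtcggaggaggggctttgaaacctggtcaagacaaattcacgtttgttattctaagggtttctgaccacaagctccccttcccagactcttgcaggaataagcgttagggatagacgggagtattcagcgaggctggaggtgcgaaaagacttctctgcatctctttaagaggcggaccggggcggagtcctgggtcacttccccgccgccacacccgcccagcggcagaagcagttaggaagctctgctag
The Slc7a11 window holds the element in both orientations, beginning 66 and 47 bases before the start. In the Slc1a4 window the element begins 4 bases before the start and runs past it. The Slc3a2 window holds neither TTGCATCA nor the wider TGATGNAA, which matches every TTGCATCA on the opposite strand. Windows were present for 6 of the 10 members and 9 starts, and both motifs were in 2 of these 9. Among all 32851 windows of this length, 0.895% hold TTGCATCA and 3.97% hold TGATGNAA. The letters TGACNNNGC, a form of the antioxidant response element, were in 4 of the 9 (Slc7a1, Slc38a2 and 2 starts of Slc6a9) and in 12.4% of all windows. Slc7a5, Slc7a3, Slc1a5 and Slc38a1 were not among the windows used here. A match of letters is a description of the sequence, and no binding was measured.

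The cationic transporters take up arginine and lysine. Slc7a1, the main one of most cells, had signals of 2100, 1707 and 1670 in control cultures and 1535, 1450 and 1312 in AA cultures on its brightest probe set. The groups did not overlap, although control replicate 1 stood well above the other controls. The log2 difference was -0.38 (SE 0.07), or 77.0% of control. A second bright probe set gave 832, 784 and 620 against 596, 646 and 572, which overlap, and a difference of -0.27 (SE 0.09). The third Slc7a1 probe set, at signals of 6.22 to 20.5, and the only probe set of Slc7a3, at 9.08 to 21.3, were too dim to order the groups, with differences of -0.13 (SE 0.44) and -0.47 (SE 0.39).

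**Figure D1:**
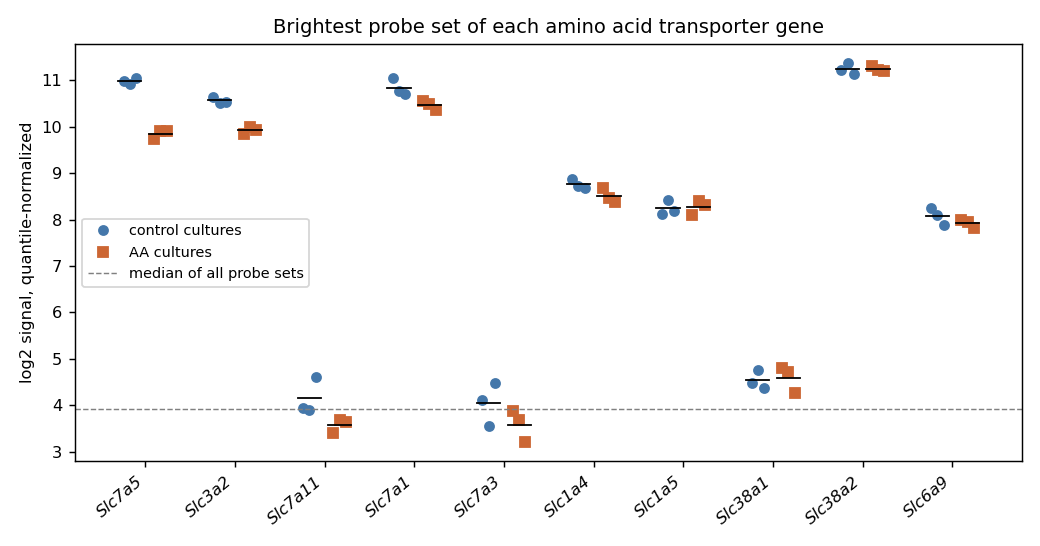
Log2 quantile-normalized signal of the brightest probe set of each member on every array, with circles for the 3 control cultures, squares for the 3 AA cultures, short lines at group means and a dashed line at the median of all probe sets, 3.93. Slc7a5 and Slc3a2 stand clear of their controls, Slc1a5 and Slc38a2 overlap, and Slc7a11, Slc7a3 and Slc38a1 lie near the dashed line.

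The exchangers of small neutral amino acids differed little. Slc1a4 (ASCT1), which carries serine, alanine and cysteine, had signals of 480, 433 and 419 in control cultures and 397, 347 and 331 in AA cultures on its brightest probe set. Here the highest AA value lay just under the lowest control value, and the log2 difference was -0.26 (SE 0.08). The next probe set had a difference of -0.14 (SE 0.09) and the dimmest one of 0.18 (SE 0.15). By replicate number the dimmest had 0.03, -0.004 and 0.50, so it gave no clear direction. Slc1a5 (ASCT2), the glutamine exchanger often paired with LAT1, had signals of 280, 346 and 298 in control cultures and 268, 332 and 317 in AA cultures. These ranges overlap almost fully, with a difference of 0.03 (SE 0.09). Its dim second probe set had a difference of -0.46 (SE 0.31), and AA replicate 2 there was within the control range.

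The sodium-coupled transporter Slc38a2 (SNAT2), which takes up glutamine, alanine and proline, gave different values on its 3 probe sets. The brightest had signals of 2353, 2551 and 2242 in control cultures and 2654, 2451 and 2363 in AA cultures, a difference of 0.0027 (SE 0.08). The second gave 269, 311 and 336 against 231, 232 and 227, with no overlap and a difference of -0.37 (SE 0.11). The third gave 48.5, 46.6 and 47.8 against 36.1, 30.2 and 34.9, again with no overlap, and a difference of -0.49 (SE 0.19). Which transcripts or gene parts the probe sets read is not in the annotation used here, and mean values over the 3 would hide the split. Slc38a1 (SNAT1), its nearest coding neighbour on chromosome 15, was dim, with signals of 19.7 to 29.0 in control and 19.2 to 27.5 in AA cultures (difference 0.05, SE 0.26). A second Slc38a1 probe set had signals of at most 0.715 and is not interpretable.

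Slc6a9 (GlyT1), the sodium- and chloride-coupled glycine transporter, also differed between its probe sets. On the brighter one the signals were 306, 279 and 238 in control cultures and 248, 244 and 228 in AA cultures, overlapping, with a difference of -0.15 (SE 0.10). On the dimmer one they were 75.2, 76.7 and 60.3 against 40.7, 48.5 and 34.3. There every AA value was below every control value, the difference was -0.78 (SE 0.17), and the AA level was 58.1% of control. With 50 added to every signal this difference was -0.40.

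**Figure D2:**
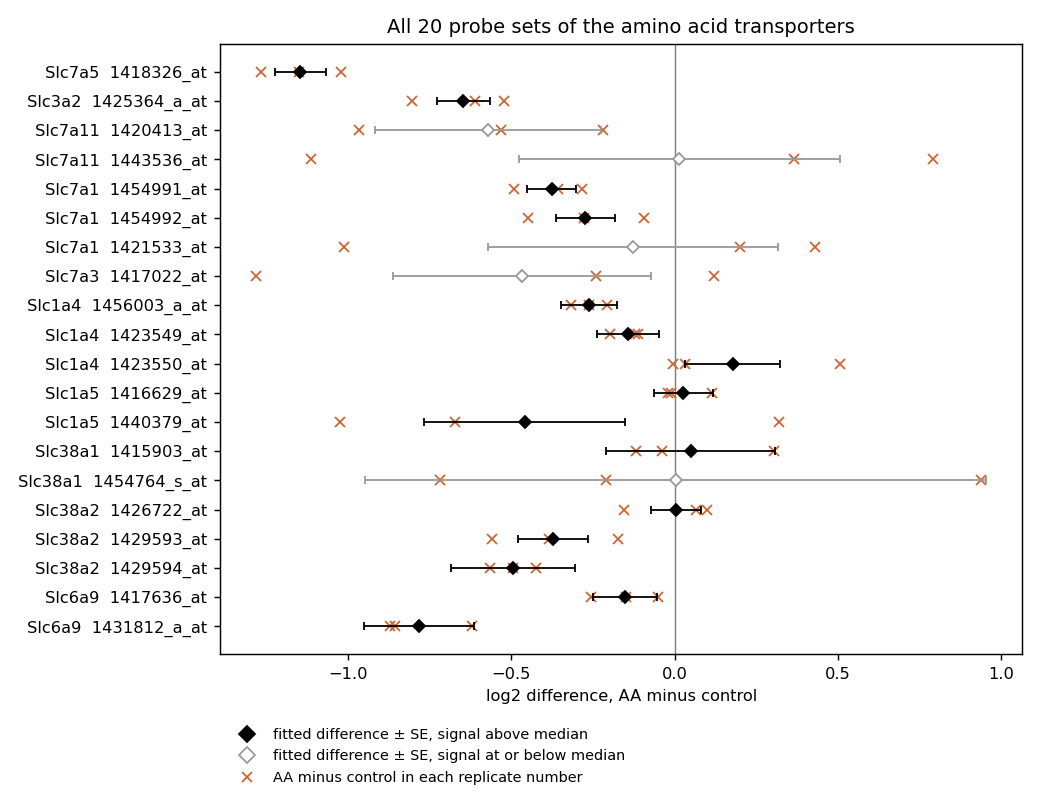
Log2 difference, AA minus control, of all 20 probe sets, with diamonds for the fitted difference, bars for 1 SE and crosses for the difference within each replicate number. Open grey diamonds mark the 5 probe sets at or below the median signal, whose bars are widest, and the Slc7a5 and Slc3a2 probe sets lie at -1.15 and -0.65.

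Over all 20 probe sets, 14 had a lower and 6 a higher fitted value in AA, with a median log2 difference of -0.27 against -0.0075 over all probe sets. Of the 15 above the median signal, 11 were lower and 4 higher. For 7 of these 15, and for 18.6% of all probe sets above the median signal, every AA signal was below every control signal. In deposited signals 8 of the 20 had every AA value below every control value and none the reverse, and across the array 11.8% and 11.0% of probe sets did so. In the fit across the whole array, 2.50% of probe sets were lower and 2.71% higher at an adjusted p under 0.05, and of those above the median signal 4.83% were lower. The 20 included 4 of those lower and none of those higher, a count that the choice of genes on this contrast had already used, so nothing is read from it.

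Most amino acid transporters outside the group passed in neither direction. Of 47 other genes of plasma membrane and lysosomal amino acid transport, each read by its brightest probe set, 5 rose and 1 fell by limma (adjusted p under 0.05), and 41 passed in neither direction. Over all 18193 genes 4.06% rose and 3.83% fell. The median log2 difference was 0.17, against -0.02 over all genes, and only 23 of the 47 had a signal above the median of all probe sets. With 1 prior variance for bright and dim probe sets alike, 0 of the whole array passed limma (2616 lower and 2587 higher at an unadjusted p under 0.05). Without replicate 2 the counts for this list were 3 and 0, and with the mean of each gene's probe sets 2 and 0.

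The 5 that rose included the proton-coupled carriers Slc36a1 and Slc36a2, which transport proline, glycine and alanine. Slc36a2 had signals of 20.4, 23.7 and 14.3 in control cultures and 294, 113 and 50.8 in AA cultures. Every AA value was above every control value, but the AA cultures themselves ranged widely. The log2 difference was 2.63 (SE 0.35, adjusted p = 0.00491 from limma), and with 50 added to every signal it was 1.37 (adjusted p = 0.0708). Slc36a1 rose on tighter values, from 116, 126 and 117 to 216, 180 and 192 (log2 difference 0.74, SE 0.12, adjusted p = 0.0115 from limma). Their relative Slc36a4 had a log2 difference of 0.03 (adjusted p = 0.911 from limma).

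Slc43a2 (LAT4), a transporter of large neutral amino acids that needs no heavy chain, rose from 67.6, 59.5 and 78.7 to 131, 134 and 131. Its log2 difference was 0.97 (SE 0.15, adjusted p = 0.0096 from limma, and 0.0713 without replicate 2), and its other probe sets had differences of 0.82 and 0.65 that did not pass. Slc38a10, a member of the Slc38 family, rose on 3 of its 7 probe sets. The brightest had a log2 difference of 0.49 (adjusted p = 0.013 from limma), lost after median centring (adjusted p = 0.0604), and the others that passed had 0.69 and 0.60. A dimmer Slc38a10 probe set had -1.34 (adjusted p = 0.0801), so its probe sets did not share a direction.

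Among other light chains of Slc3a2, Slc7a7 (y+LAT1), which exchanges cationic for neutral amino acids, rose from 15.7, 23.2 and 17.9 to 54.7, 38.8 and 44.8. The groups did not overlap, but the control values were dim. The log2 difference was 1.26 (SE 0.26, adjusted p = 0.029 from limma), and 0.47 with 50 added (adjusted p = 0.0689), nor did it pass without replicate 1 or 2 (adjusted p = 0.0996 and 0.0636). Slc7a6 (y+LAT2) had a log2 difference of 0.23 (adjusted p = 0.169) and no overlap, with 477, 493 and 507 against 562, 552 and 574. Its second probe set, also bright, had a difference of 0.03 (adjusted p = 0.935 from limma), with means of 468 in control and 463 in AA cultures. Slc7a8 (LAT2) was too dim to read, with signals of 0.289 to 6.21. The 1 gene that fell was Slc7a2, a cationic transporter like Slc7a1, from 186, 245 and 234 to 120, 133 and 139. Its log2 difference was -0.73 (SE 0.11, adjusted p = 0.00882 from limma), and the call was lost without replicate 2 (adjusted p = 0.0808). The proline transporters Slc6a7 and Slc6a20a were below the median signal, with adjusted p of 0.832 and 1.000. Slc38a4, the coding neighbour of Slc38a2 on its other side, had a log2 difference of 0.01 (adjusted p = 0.994).

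**Figure D3:**
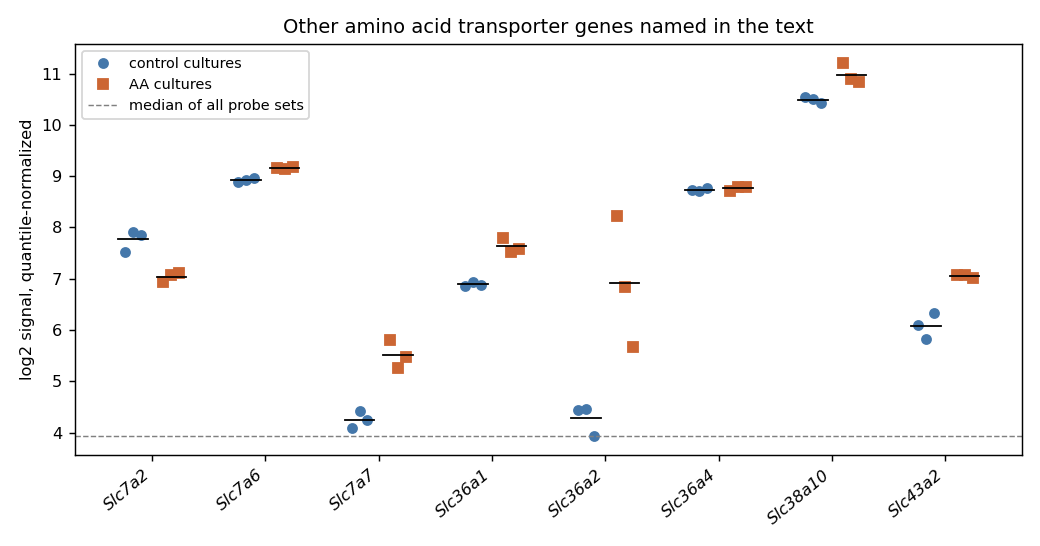
Log2 quantile-normalized signal of 8 other amino acid transporter genes on every array, by brightest probe set, with circles for the 3 control cultures, squares for the 3 AA cultures, short lines at means and a dashed line at the median of all probe sets. Slc7a2 is lower in every AA culture, Slc36a4 overlaps, the other 6 are higher in every AA culture, and the AA values of Slc36a2 are spread widest.

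Of 14 mitochondrial carriers of amino acids and related molecules, 2 rose and none fell, beside 4.06% and 3.83% of all genes. In limma 4 were lower at an unadjusted p under 0.05, among them Slc25a39 and Slc25a40, and none was by the paired test at the methods' threshold. Slc25a13 (citrin), an aspartate-glutamate carrier, rose from 185, 206 and 198 to 285, 322 and 319, a log2 difference of 0.69 (adjusted p = 0.00555 from limma). The ornithine carrier Slc25a15 had a log2 difference of 0.45 (adjusted p = 0.0326), lost after median centring (adjusted p = 0.139) and without replicate 2 or 3. The list's median was -0.05.

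Genes of amino acid sensing by the growth kinase mTORC1 mostly did not pass, in a list that also holds Mtor, Rptor, Rheb, Tsc1 and Tsc2. Of 35 measured, 2 rose, 1 fell and 32 did not pass, beside 4.06% and 3.83% of all genes, with a median log2 difference of 0.03. Sesn3, a sestrin, fell from 905, 929 and 998 to 508, 532 and 607 (log2 difference -0.77, SE 0.08, adjusted p = 0.0014 from limma), and its second probe set fell by 1.23 on the log2 scale. The leucine sensor Sesn2 had a difference of -0.30 (adjusted p = 0.343), and its second probe set one of -0.59 (adjusted p = 0.0609). The 2 that rose were Lamtor5, of the Ragulator complex on the lysosome (0.40, adjusted p = 0.0136), and Sec13 (0.50, adjusted p = 0.0088), which also is a coat protein of ER exit. Both were lost after median centring (adjusted p = 0.136 and 0.0764) and without replicate 2 (adjusted p = 0.102 and 0.0669). The lysosomal arginine sensor Slc38a9 had a log2 difference of 0.25 (adjusted p = 0.670).

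In the list of eIF2alpha kinases, ATF4 and its partners and targets, most differences were negative, with 4 of 18 measured genes positive. Of 18 measured, 7 fell and none rose (10 lower and 2 higher at an unadjusted p under 0.05, and 1 higher by the paired test at the methods' threshold), beside 3.83% and 4.06% of all genes, with a median log2 difference of -0.23. Trib3, a pseudokinase induced by ATF4, fell from 347, 388 and 358 to 97.8, 104 and 99.8. Its log2 difference was -1.83 (SE 0.10, adjusted p = 0.000174 from limma), and its second probe set gave -1.73. Ddit3, which encodes CHOP, fell from 889, 847 and 804 to 348, 339 and 319 (log2 difference -1.31, SE 0.08, adjusted p = 0.000225 from limma), while its dim second probe set had 0.30 (adjusted p = 0.630). Atf5, a relative of ATF4, fell by 0.83 on the log2 scale (adjusted p = 0.000982) and Chac1, an enzyme that degrades glutathione, by 0.65 (adjusted p = 0.00449).

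Atf4 itself had signals of 3069, 2693 and 2906 in control cultures and 2724, 2734 and 2486 in AA cultures. The deposited signals overlapped, while after normalization every AA value was below every control value, and the log2 difference of -0.19 (SE 0.07) did not pass (adjusted p = 0.193 from limma). Eif2ak4, which encodes the amino acid sensing kinase GCN2, had a difference of -0.18 (adjusted p = 0.581). The remaining genes that fell, named here after their values were seen, were Atf3, Cebpb and Eif2ak2. Of the 4 kinases only Eif2ak2 passed. Eif2ak3, which encodes PERK, went from 514, 471 and 657 to 903, 744 and 686, with no overlap and a log2 difference of 0.53 (adjusted p = 0.0705), and Eif2ak1 had 0.21, also with no overlap (adjusted p = 0.350). Nupr1, a stress-induced nuclear protein, had 0.40 with overlapping groups (adjusted p = 0.0510). These genes too were named after their values were seen, and Eif2ak3 and Nupr1 passed as higher among probe sets above the median signal and without replicate 3. Without replicate 2, only Atf5, Ddit3, Trib3 and Chac1 of the 7 passed. These arrays measure RNA, and neither ATF4 protein nor amino acid uptake was measured.

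**Figure D4:**
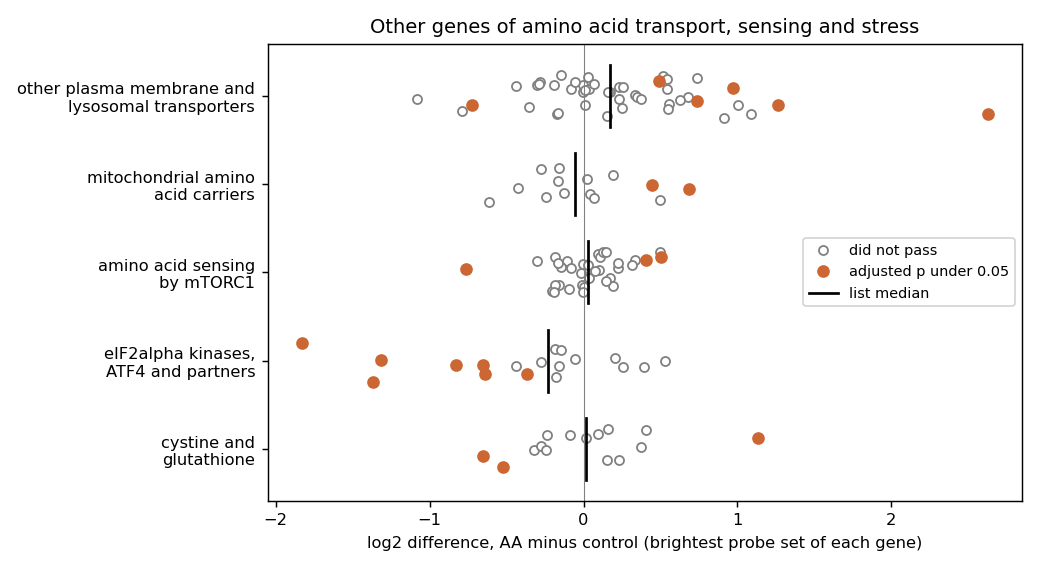
Log2 difference, AA minus control, of each measured gene in 5 lists outside the 10 transporters, 1 point per gene by its brightest probe set, filled where the adjusted p was under 0.05, with a bar at each list's median. The ATF4 list has 7 filled points, all below 0, and the list of other plasma membrane and lysosomal transporters has 5 above and 1 below.

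Of 15 genes of cystine and glutathione metabolism, the route that Slc7a11 feeds, 1 rose and 2 fell, beside 4.06% and 3.83% of all genes, with a median log2 difference of 0.02. Gclm, a subunit of the enzyme that starts glutathione synthesis, fell from 509, 532 and 581 to 316, 404 and 386 (log2 difference -0.52, SE 0.09, adjusted p = 0.016 from limma). The other that fell was Chac1, which this list shares with the ATF4 list. Ggct, a cyclotransferase of glutathione breakdown, rose by a log2 difference of 1.13 (adjusted p = 0.0107), lost without replicate 2 (adjusted p = 0.0556). Nfe2l2, which encodes NRF2, had a difference of -0.24 (adjusted p = 0.110).

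Of 12 OB markers planned, Runx2, Bglap, Bglap2 and Spp1 had no probe set named for them alone and were not read. Of the 8 measured, 6 were above the median signal, and Alpl, Ibsp and Ifitm5 rose. Sp7, Col1a1 and Col1a2 had log2 differences of 0.29, 0.11 and 0.04 and did not pass. Nor did the dim Dmp1 and Phex, with 1.58 and -0.56. The summed signal of all 8 was 15336 to 18425 in control and 20996 to 28717 in AA cultures. Col1a1 and Col1a2 made up the largest part of it, with control means of 6052 and 7961. All 5 measured adipocyte markers were below that median (sums of 7.06 to 10.8 in control and 11.1 to 14.9 in AA cultures), and Plin1 was not read. All 5 endothelial markers were below it too (sums of 27.6 to 36.2 and 18.8 to 31.0). Of both lists only the dim Vwf passed, lower in AA. Of 6 skeletal muscle markers, Des alone was above the median. The sums of all 6 were 55.1 to 81.3 in control and 67.5 to 68.5 in AA cultures. Of 6 chondrocyte markers 3 were above it and Col2a1 rose (sums of 366 to 429 in control and 474 to 574 in AA cultures). The others above it were Sox9, with a log2 difference of -0.33 and no overlap (adjusted p = 0.283), and Matn3, with 0.26 (adjusted p = 0.684), while Acan and Matn1 had signals under 10. Of 6 macrophage markers, Csf1r and Lyz2 were above it, and Csf1r rose (sums of 377 to 470 and 404 to 466). Lyz2 had a log2 difference of -0.18, and the dim Adgre1 and Cd68 had -0.55 and -0.02, none of which passed. Ptprc and Itgam, at signals of only 0.411 to 4.93, had 1.40 and -0.45, and neither passed. The part of any of these cell types in the transporter values was not tested. Control replicate 3 had the highest 3' to 5' ratio of Gapdh control probe sets, a sign of RNA integrity, at 0.920 against 0.791 to 0.809 on the other arrays. Without replicate 3 the log2 difference was -1.14 for Slc7a5 and -0.66 for Slc3a2.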

How the data were processed

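RNA of 3 control and 3 AA cultures of MC3T3-E1 cells, taken at day 5, was hybridized to 6 arrays. The table deposited by the authors gives a linear intensity for each probe set. The submitters' processing notes name MAS5, and each array had been scaled to a mean of 150 once 2% of values at either end were trimmed. The quantile normalization and GC-RMA of the study's methods are not carried by these values. No detection calls were used. The number of arrays limits the precision. The methods describe triplicates in 6-well plates, and elsewhere the study speaks of triplicate experiments, so it is not settled whether the arrays are separate experiments, and p-values measure only the spread between these samples.

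Log2 intensities of 45037 probe sets were quantile-normalized and fitted with limma 3.58.1 in R 4.3.3, with replicate number as a block, as the methods name paired tests, and with variances moderated along the signal (2 residual degrees of freedom and 6.18 prior). Benjamini-Hochberg adjustment covered every probe set fitted, and 0.05 was the threshold. Of the probe sets, 34945 carry a single gene in GEO's platform annotation. A list gene was read by its brightest probe set named for that gene alone. The transporters, the lists and the tests were chosen with earlier results of these data known. Named genes are the 10 transporters and up to 4 genes per direction of each list by smallest p among those that passed. A fixed set of light chains, cationic and proline transporters, sensors and stress factors is named whatever the p. Outside this rule, Slc38a4 is named as a coding neighbour of Slc38a2. Slc25a39, Slc25a40 and some genes of the ATF4 list are named by their values. Alternatives were other scalings, a pseudocount of 50, filters on dim probe sets, no replicate block and moderation without the trend. Others were the methods' paired test at p under 0.01, left-out replicates and probe sets averaged by gene. The fold-change cutoff that the study's results also name was not applied with the paired test. Promoter windows come from RefSeq for GRCm38.p6. The genome build behind the probe sets is not given in the sources used here.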

Additional observations from a re-analysis of the deposited data

How the results depend on the processing

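Same-numbered control and AA arrays did not deviate together over all probe sets (correlations of deviations from group means 0.0165, 0.00369 and 0.00994), and above the median signal the correlations were 0.182, 0.0251 and 0.0921. The numbers are thus not shown to pair the cultures, and the block follows the paired tests of the study. Without the replicate block the fit gave 1089 higher and 1039 lower probe sets, and 2 other transporters were lower.

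On signals as deposited 1 mitochondrial carrier was higher. After median centring 2 other transporters were lower, 1 mitochondrial carrier higher and 0 mTORC1 genes higher. With 50 added to every signal 788 probe sets were higher and 655 lower, with 3 other transporters and 1 mitochondrial carrier higher. Among probe sets above the median signal 2 other transporters were lower and 2 genes of the ATF4 list higher, and above the upper quartile 2 other transporters were higher and 2 lower, 2 mitochondrial carriers lower and 2 genes of the ATF4 list higher. Without the intensity trend in limma, and with the paired test after Benjamini-Hochberg adjustment, the count was 0 in either direction for all probe sets and every list, while 2587 probe sets were higher and 2616 lower at an unadjusted p under 0.05 without the trend, and 2612 and 2827 with the paired test. With the paired test at the methods' threshold 706 probe sets were higher and 736 lower, 0 other transporters, 1 mitochondrial carrier, 1 gene of the ATF4 list and 0 cystine and glutathione genes higher. With probe sets averaged by gene 2 other transporters were higher and 0 lower, 1 mitochondrial carrier higher and 0 cystine and glutathione genes higher. Beyond the construction of each setting, the cause of these moves was not tested.

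Leaving out a replicate number gave 556 to 1169 probe sets higher and 410 to 994 lower, the fewest without replicate 2. With no replicate block, the counts of higher and lower probe sets were 1160 and 898 without control replicate 1, 496 and 371 without control replicate 2, 742 and 561 without control replicate 3, 468 and 488 without AA replicate 1, 380 and 339 without AA replicate 2, and 632 and 548 without AA replicate 3. Over all these left-out replicates, other transporters had 3 to 6 higher and 0 to 3 lower, mitochondrial carriers 1 to 2 higher and 0 lower, mTORC1 genes 0 to 3 higher and 1 lower, ATF4 list genes 0 to 2 higher and 4 to 5 lower, and cystine and glutathione genes 0 to 1 higher and 1 to 2 lower. Signals near or below the median of all probe sets (Slc7a11, Slc7a3, Slc38a1) limit what can be read of those genes.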
